A study of Mus musculus with 6 samples.

Results

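The genes described here are 41 members of the fibroblast growth factor (FGF) pathway: ligands, receptors and their adaptors, and genes that ERK signalling induces, including its feedback inhibitors and the ETV transcription factors. They were chosen by symbol, and all 41 were found among 55471 gene identifiers counted. The RNA came from epiblast stem cells of the mouse (EpiSC), pluripotent cells that resemble the epiblast just before and during gastrulation, after 2 days as embryoid bodies in serum. The 6 libraries are 3 labelled Mixl1 KO and 3 labelled Mixl1 induced, and the comparison asks how expression differs with the presence of Mixl1, a homeobox factor of the primitive streak. Induced cells came from a Mixl1 inducible line given doxycycline at 1 µg/mL for the last 24 h. The labels do not say whether the KO cells received doxycycline, which part of Mixl1 was altered, what drives the inducible gene, whether the lines share a parent, or whether a line is a single clone. Line, and doxycycline if the KO cells received none, therefore cannot be told apart from Mixl1. Both groups were maintained on irradiated mouse embryonic fibroblasts in medium holding 10 ng/mL of basic FGF (FGF2 protein) and 20 ng/mL of Activin A. Whether either factor was present in the embryoid body medium is not stated.

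FGF ligands are secreted proteins that bind receptor tyrosine kinases together with heparan sulfate chains on the cell surface. The receptors pass the signal through the adaptor FRS2 to RAS, RAF, MEK and ERK. ERK in turn raises transcription of genes that dampen the pathway, such as the Sprouty, Spred and DUSP families, and of the ETV factors, so these transcripts are widely used as a readout of its activity. In the gastrulating mouse embryo Fgf8 and Fgf4 are expressed in the primitive streak, Fgf5 in the epiblast and Fgf15 in the neural tube. EpiSC depend on FGF and Activin for self-renewal.

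Between 17490426 and 21026423 reads per library fell on genes. Mixl1 itself (ENSMUSG00000026497.7) had 817, 668 and 812 reads in the KO libraries and 8860, 7720 and 7861 in the induced ones. Counts over the whole gene do not show which exons the KO reads came from. Libraries of the same group differed by more than counting noise (chi-square per degree of freedom 2.26 to 5.24, against 80.4 to 92.3 between groups). Nothing in the labels says that replicates came from separate cultures, so the p-values measure the spread between these libraries, which may be technical. All 9 markers of epiblast stem cells on the list were expressed in every group, with summed levels of 2509 to 2658 CPM (reads relative to library size, which was scaled by the TMM method) in KO and 2796 to 2951 CPM in induced libraries. The close sums hide shifts in both directions. In induced libraries 6 markers were higher and 3 lower (edgeR adjusted p under 0.05, as for 62.6% of all tested genes). Without the most abundant, Pou5f1 (mean 1294 against 807.1 CPM), the rest summed to 1261 to 1323 CPM in KO and 2013 to 2134 CPM in induced libraries. Summed markers of macrophages were lower in the induced group (314.2 to 453.4 against 45.9 to 57.5 CPM), as were, less so, those of fibroblasts (843.9 to 1061 against 536.6 to 744.2 CPM). Summed markers of nascent and paraxial mesoderm went from 1818 to 1921 CPM down to 266.1 to 300.9 CPM, a shift made by the streak gene T (Brachyury; mean 1807 against 204.8 CPM). The other 5 mesoderm markers summed to 59.96 to 71.85 CPM in KO and 65.3 to 82.9 CPM in induced libraries, with overlap. Summed markers of neural ectoderm (14.0 to 14.3 against 48.2 to 56.6 CPM) and definitive endoderm (12.2 to 13.6 against 99.0 to 101.7 CPM) were higher. Most of the neural sum was Sox1 (mean 10.9 against 42.4 CPM). The other neural markers summed to 2.70 to 3.58 CPM in KO and 8.92 to 11.3 CPM in induced libraries. In endoderm, Cer1 rose from a mean of 0.276 to 51.15 CPM, and the others summed to 11.95 to 13.3 against 45.85 to 51.9 CPM. Of these others, Foxa2, Gata6 and Gata4 were called higher, and Sox17 and Hhex did not pass the test. The part of these shifts in the members' values was not tested. In bulk RNA, fewer cells of a type and less RNA per cell cannot be told apart.

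Of the 41 members, 39 had enough reads to be tested, and 29 of them changed, 14 higher and 15 lower in induced libraries (edgeR quasi-likelihood test, Benjamini-Hochberg adjusted p under 0.05 over all 15091 genes tested). That is 74.4% of the tested members, where 62.6% of all tested genes were called, 31.0% higher and 31.6% lower. At least 2-fold changes among the calls were estimated for 10 members, 5 in each direction, and for 16.1% of all tested genes. The CPM of the groups did not overlap for 29 tested members, and for 67.1% of all tested genes. The members' median log2 fold change was 0.03, with a median size of 0.57, where all tested genes had medians of 0.00 and 0.32. Every level of the pathway except the ligand-carrier proteins held members that changed. In the families of ligands, receptors, Spreds and phosphatases some rose while others fell. The adaptors were also called in opposite directions, but their calls were not firm.

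**Figure D1:**
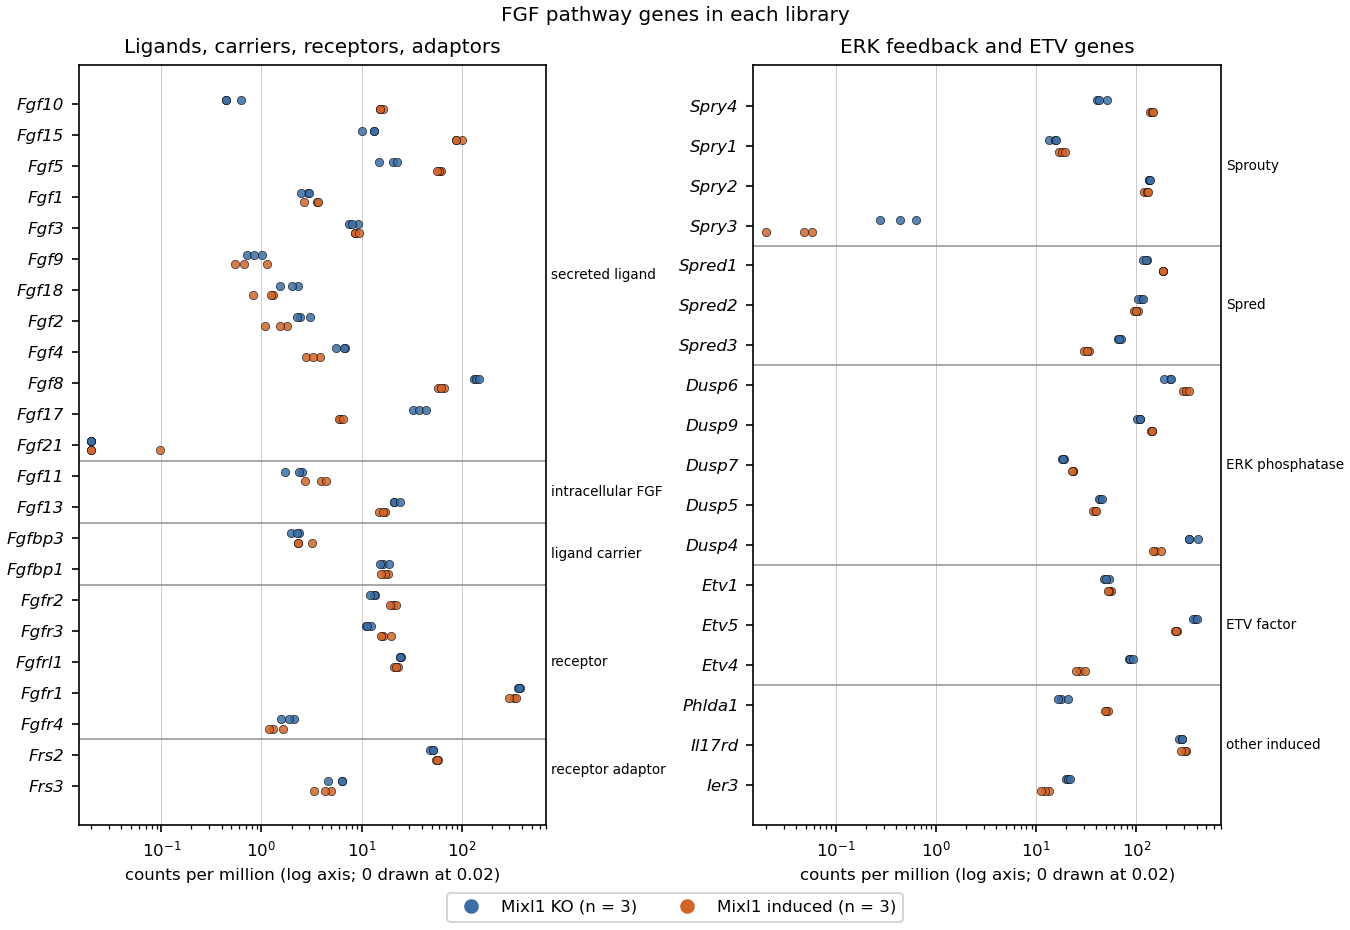
Expression of the 41 genes in each library, in CPM on a log axis, with 3 KO and 3 induced libraries per gene as points and genes ordered by fold change within each level of the pathway; libraries without a read are drawn near the left edge. Fgf10 and Fgf15 among the ligands and Spry4 and Phlda1 among the feedback genes lie far to the right in the induced libraries, and Fgf17, Fgf8, Etv4, Dusp4 and Spred3 to the left.

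Fgf8, the main streak ligand, was the most abundant ligand transcript of the KO cells and was lower in the induced cells. It measured 132.1, 139.1 and 148.2 CPM in the KO libraries and 67.1, 57.9 and 62.3 CPM in the induced ones. All induced libraries lay below all KO libraries, a 2.24-fold fall (log2 fold change -1.16, SE 0.058, adjusted p = 1.18e-13). Fgf17, a close relative of Fgf8 in the same subfamily, fell further. Its KO libraries held 32.7, 37.6 and 43.9 CPM and its induced libraries 6.12, 5.89 and 6.55 CPM, which is 6.14-fold lower (log2 fold change -2.62, SE 0.110, adjusted p = 3.81e-14). Fgf18, the remaining member of that subfamily, was near 2 CPM and also fell (log2 fold change -0.79, SE 0.260, adjusted p = 0.0116). Its call was lost without KO replicate 1 (adjusted p = 0.059) and without induced replicate 3 (adjusted p = 0.0637), within a range of 0.00444 to 0.0637 over all alternatives. Of 6 mesoderm markers, T, Tbx6, Dll1 and Meox1 also fell, Mesp1 rose (mean 2.27 against 32.0 CPM) and Msgn1 did not pass the test. Over all tested genes 31.6% were called lower and 31.0% higher. The part of the mesoderm markers in the falls was not tested.

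Fgf4, which acts in the epiblast and streak and is the autocrine ligand of pluripotent cells, fell as well. It went from 6.83, 6.61 and 5.58 CPM to 3.81, 2.80 and 3.28 CPM, with no overlap (log2 fold change -0.94, SE 0.157, adjusted p = 2.24e-05). Fgf2, the gene of the factor used in EpiSC culture, was low and fell from 2.44, 3.03 and 2.26 CPM to 1.78, 1.09 and 1.53 CPM (log2 fold change -0.79, SE 0.230, adjusted p = 0.00477). These reads come from the mouse gene and do not measure the FGF2 protein added to the medium.

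In contrast, 3 ligands rose by more than 2-fold. Fgf15, a ligand of the developing neural tube and the mouse counterpart of human FGF19, measured 13.2, 13.4 and 10.0 CPM in KO and 87.7, 100.2 and 88.1 CPM in induced libraries. The groups lay far apart, at a 7.53-fold difference (log2 fold change 2.91, SE 0.088, adjusted p = 3.96e-15). Fgf5, a marker of post-implantation and primed epiblast, rose 3.05-fold, from 20.8, 22.8 and 14.95 CPM to 62.4, 59.7 and 56.3 CPM (log2 fold change 1.61, SE 0.116, adjusted p = 2.74e-07). Among the KO libraries, replicate 3 was the lowest for both genes and the highest for Fgf8 and Fgf17. Of 5 tested neural ectoderm markers 4 were higher beside the rise of Fgf15, with Pax6 and Hes5 under 1 CPM in every library. Over all tested genes 31.0% were called higher. The part of these markers in the rise was not tested.

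Fgf10, known as a ligand made by mesenchyme for neighbouring epithelium, showed the largest change of the members. It had 9, 8 and 12 reads in the KO libraries and 319, 286 and 279 in the induced ones, or 0.439, 0.441 and 0.632 CPM against 15.4, 16.3 and 15.2 CPM. The gene was thus close to undetected in the KO cells and clearly present in the induced cells, 30.7-fold higher (log2 fold change 4.94, SE 0.176, adjusted p = 2.44e-16). Of 13 fibroblast markers, which feeder cells would carry, 7 were lower and 3 (Col1a2, Thy1 and Lum) higher, and none was under 1 CPM in all libraries. Over all tested genes 31.6% were called lower and 31.0% higher. The part of the fibroblast markers in the rise of Fgf10 was not tested.

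Promoter letters were compared for the 30 members with entries in the RefSeq promoter set used, each a window of 300 bases (250 before the start site and 50 after, in GRCm38.p6, the mm10 assembly). No entry was available for Fgf1, Fgf8, Fgf15, Fgf17, Fgfr1, Spry3, Spry4, Dusp4, Dusp9, Etv4 and Phlda1, which were not searched. The core CCGGAA, the sequence that ETS factors such as the ETV proteins recognise, was searched on both strands, with the longer CCGGAAGT that contains it. Also searched were the cyclic AMP element TGACGTCA, the AP-1 site TGACTCA, the homeodomain motif TAATTA and the paired-class homeodomain palindrome. The ETS core stood in the windows of Fgf5, Fgfr4, Fgfrl1, Frs2 and Spry2, which is 5 of the 36 windows listed for the 30 members, and in 14.9% of 32851 promoter windows in the table. The longer ETS site was found for Fgfrl1 and Frs2 (3.89% of all windows). None of the 36 member windows searched held the cyclic AMP element, the AP-1 site, the homeodomain motif or the palindrome. These occur in 1.79%, 5.2%, 5.29% and 0.487% of all windows. A match is only a match of letters, and its absence covers only this window. Shown are the windows of Fgf5 and Fgf10, the ligands with an entry that rose by more than 2-fold, and of Spry2, a feedback gene with an ETS core that did not pass the test. They lie at chr5:98253934-98254233 (plus strand), chr13:118714449-118714748 (plus strand) and chr14:105896770-105897069 (minus strand). Each is written 5′ to 3′ on the gene's strand, with the ETS core in capitals.
Fgf5: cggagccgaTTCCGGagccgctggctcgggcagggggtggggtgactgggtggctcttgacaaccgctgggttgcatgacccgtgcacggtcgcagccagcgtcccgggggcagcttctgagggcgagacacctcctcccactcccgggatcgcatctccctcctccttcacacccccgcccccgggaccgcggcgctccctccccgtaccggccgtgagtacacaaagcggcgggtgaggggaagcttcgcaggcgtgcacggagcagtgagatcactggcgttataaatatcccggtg
Fgf10: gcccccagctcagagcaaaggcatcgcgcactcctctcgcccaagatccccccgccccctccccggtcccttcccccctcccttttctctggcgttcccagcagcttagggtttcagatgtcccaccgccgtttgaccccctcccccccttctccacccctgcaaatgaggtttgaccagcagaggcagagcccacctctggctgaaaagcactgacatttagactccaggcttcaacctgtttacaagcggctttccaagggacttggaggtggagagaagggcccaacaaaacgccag
Spry2: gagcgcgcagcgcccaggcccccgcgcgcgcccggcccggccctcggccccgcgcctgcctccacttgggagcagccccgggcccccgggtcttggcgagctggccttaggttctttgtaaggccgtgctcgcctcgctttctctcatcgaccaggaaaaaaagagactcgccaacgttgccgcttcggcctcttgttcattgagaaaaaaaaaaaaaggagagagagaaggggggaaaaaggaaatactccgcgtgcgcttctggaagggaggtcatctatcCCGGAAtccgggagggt

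The core of Fgf5, in reverse orientation, begins 241 bases before the start site, that of Spry2 lies after it, and the window of Fgf10 has none. In the annotation used for exon lengths, the Fgf10 gene begins further upstream, at 118669791 on chromosome 13, and that start was not searched.

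Fgf3, Fgf4 and Fgf15 are neighbours on chromosome 7, all on the plus strand and within 62871 bp of each other (mm10), and they did not move together. Fgf3, an ear and tail bud ligand, lies from 144838083 to 144844436 and measured 9.12, 7.44 and 7.95 CPM in KO and 8.58, 8.69 and 9.39 CPM in induced libraries. Its groups overlapped, and it did not pass the test (log2 fold change 0.12, SE 0.117, adjusted p = 0.401). Fgf4 begins 2930 bp further on, at 144847367, and fell, while Fgf15 begins 31287 bp past the end of Fgf4, at 144896531, and rose. Beyond Fgf15, LTO1 (144915100 to 144931701) rose slightly (log2 fold change 0.33, SE 0.092, adjusted p = 0.00377) and Ccnd1, the cyclin D1 gene (144929931 to 144939925), fell slightly (log2 fold change -0.38, SE 0.045, adjusted p = 1.45e-07). Both were chosen for their position, after their values were seen.

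The other secreted ligands were low in both groups. Fgf1 and Fgf9, both widely acting ligands, averaged 2.79 against 3.32 CPM and 0.861 against 0.788 CPM and did not pass the test, with log2 fold changes of 0.26 (SE 0.185) and -0.15 (SE 0.335). Fgf21, a metabolic hormone, had no read in the KO libraries, which allows up to 0.0523 CPM (without TMM scaling) over the group, and 2 reads in 1 induced library, so no fold is given. Fgf11 and Fgf13 belong to the FGF homologous factors, which stay inside the cell and act on sodium channels rather than on FGF receptors. Fgf11 rose from a mean of 2.21 to 3.67 CPM (log2 fold change 0.73, SE 0.209, adjusted p = 0.0042) and Fgf13 fell from 22.1 to 16.2 CPM (log2 fold change -0.44, SE 0.089, adjusted p = 0.000166).

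**Figure D2:**
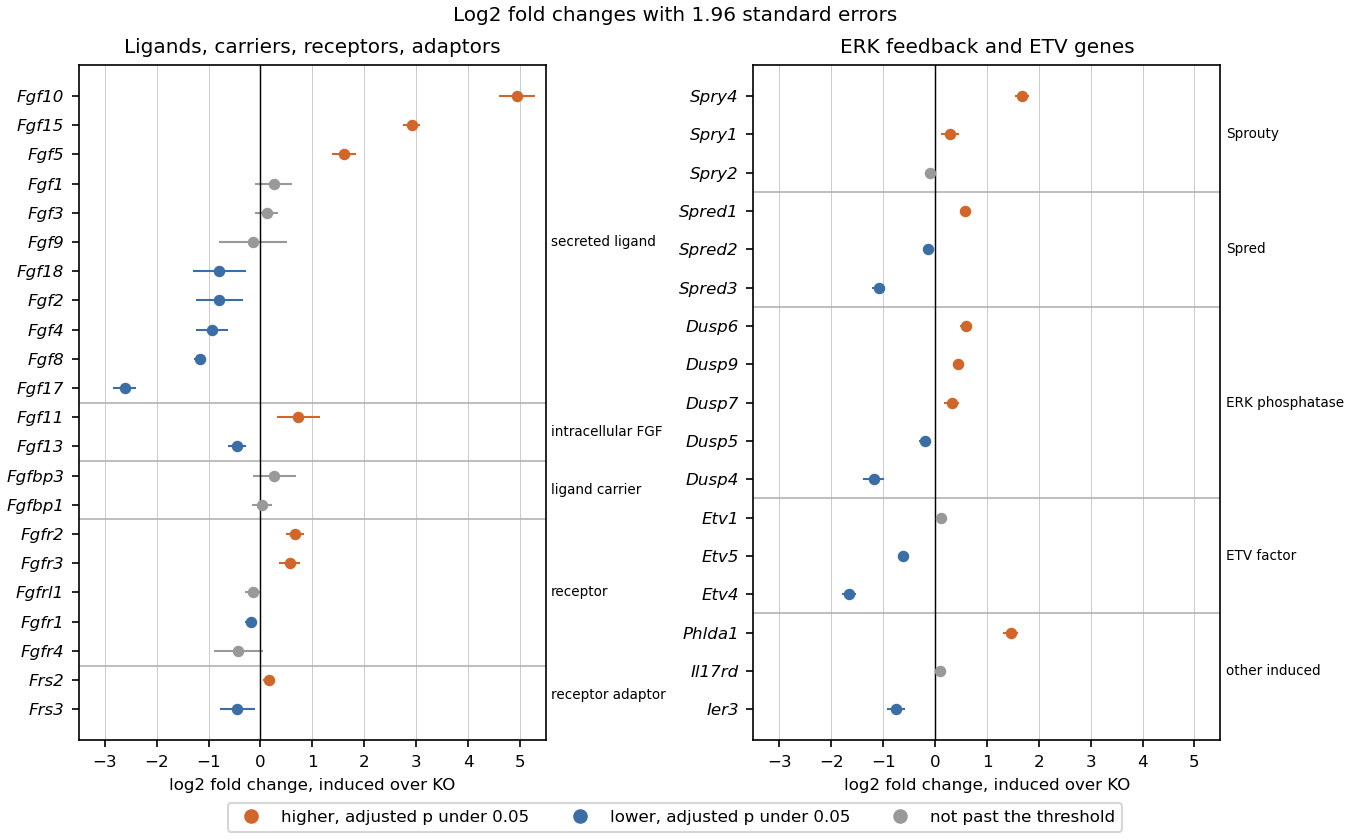
Log2 fold change of each tested gene, induced over KO, as a point with a bar for its approximate 95% interval, coloured by the edgeR call. Ligands span the widest range, from -2.62 for Fgf17 to 4.94 for Fgf10, while the receptors stay between -0.42 and 0.66.

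Divided by exon length, which allows levels to be compared between genes, the ligand mixture differed between the groups. The unit here is reads per kilobase of exon, scaled to the library's gene reads as in RPKM. In KO cells Fgf8 stood at 104.0 ± 6.02 RPKM (SD, n = 3), followed by Fgf17 at 22.6 and Fgf5 at 7.84 RPKM. In induced cells Fgf8 stood at 45.9 ± 3.05 RPKM (SD, n = 3), followed by Fgf15 at 29.9 and Fgf5 at 23.6 RPKM. Fgf8 thus made up 70.8% ± 1.01 (SD, n = 3) of the summed ligand level in KO libraries and 40.5% ± 2.32 (SD, n = 3) in induced ones. Fgf15 went from 2.74% to 26.4% of the sum, Fgf5 from 5.37% to 20.8% and Fgf17 from 15.4% to 3.22%.

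The order among the lower ligands was partly unresolved. In KO libraries Fgf15 overlapped Fgf3, and Fgf4 overlapped Fgf18. In induced libraries the ranges of Fgf3, Fgf17 and Fgf10 (means of 3.79, 3.64 and 3.38 RPKM) overlapped from each to the next, as did Fgf4 with Fgf18 and Fgf2 with Fgf9. Dividing by the longest transcript instead of all exons raised Fgf15, whose induced range of 47.8 to 55.4 RPKM then overlapped that of Fgf8, 49.6 to 56.6 RPKM, so which of them leads in induced cells is not settled. The 12 secreted ligands summed to 139.2, 148.6 and 152.8 RPKM in the KO libraries and to 115.8, 113.2 and 110.5 RPKM in the induced ones. All induced sums were lower, with exact two-sided permutation p = 0.1, the smallest value that 3 libraries against 3 can give.

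**Figure D3:**
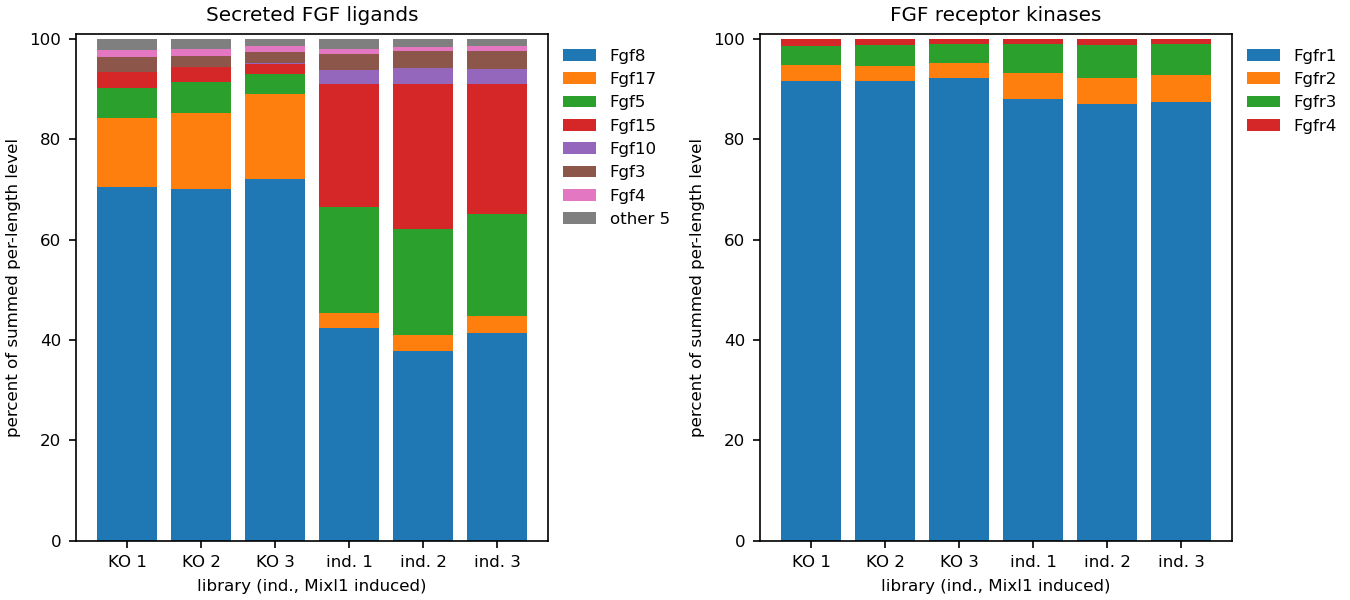
Share of each ligand (left) and each receptor kinase (right) in the summed per-length level of its class, as stacked bars in percent for every library. Fgf8 and Fgf17 fill most of the KO bars, Fgf8, Fgf15 and Fgf5 most of the induced bars, and Fgf1, Fgf2, Fgf9, Fgf18 and Fgf21 together form the grey cap. Fgfr1 fills 86.9% to 92.2% of every receptor bar.

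The proteins that carry FGFs out of the matrix did not pass the test. Fgfbp1 averaged 16.8 against 17.1 CPM (log2 fold change 0.03, SE 0.097) and Fgfbp3 2.20 against 2.62 CPM (log2 fold change 0.27, SE 0.207).

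Receptor transcripts changed less than those of the ligands. Fgfr1, the main receptor of the epiblast and needed for cells to leave the streak, measured 366.5, 381.2 and 371.8 CPM in KO and 336.3, 349.4 and 297.7 CPM in induced libraries. The groups did not overlap, but the difference was small (log2 fold change -0.19, SE 0.052, adjusted p = 0.00351). Fgfr2 rose from 13.7, 13.2 and 12.3 CPM to 20.7, 21.9 and 19.2 CPM (log2 fold change 0.66, SE 0.088, adjusted p = 1.12e-06). Fgfr3 rose from 11.0, 12.5 and 11.2 CPM to 16.3, 19.5 and 15.6 CPM (log2 fold change 0.57, SE 0.102, adjusted p = 5.04e-05). Both are receptor kinases that many epithelia and the neural tube express. Fgfr4 was the lowest of them per length (0.525 against 0.389 RPKM) and did not pass (log2 fold change -0.42, SE 0.240, adjusted p = 0.131). Fgfrl1, a receptor that binds FGFs but lacks the kinase, averaged 24.4 against 21.96 CPM and did not pass either (log2 fold change -0.15, SE 0.074, adjusted p = 0.0897), although its groups did not overlap.

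Per length, Fgfr1 exceeded each of the other receptors in every library. It stood at 38.0 ± 0.965 RPKM (SD, n = 3) in KO and 33.0 ± 2.79 RPKM (SD, n = 3) in induced cells, ahead of Fgfrl1 (8.80 and 7.84), Fgfr3 (1.62 and 2.38) and Fgfr2 (1.27 and 1.98 RPKM). Neighbours in this order did not overlap. With the longest transcript as the length, Fgfr2 had a higher mean than Fgfr3, but their ranges overlapped in both groups. Fgfr2 ran from 2.77 to 3.09 RPKM against 2.59 to 2.97 RPKM for Fgfr3 in KO libraries. In induced libraries the ranges were 4.31 to 4.96 and 3.64 to 4.59 RPKM, so the order of Fgfr2 and Fgfr3 is not settled. The share of Fgfr1 among the 4 receptor kinases was 91.5%, 91.6% and 92.2% in KO and 88.0%, 86.9% and 87.3% in induced libraries. It was lower in all 3 induced libraries, by 4.33 percentage points on average, again at the smallest p that the exact permutation test allows (two-sided, p = 0.1).

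Frs2, the docking protein that links FGF receptors to RAS, averaged 50.4 CPM in KO and 56.3 CPM in induced libraries and rose slightly (log2 fold change 0.16, SE 0.056, adjusted p = 0.017). Its relative Frs3 averaged 5.78 against 4.22 CPM and fell with overlapping groups (log2 fold change -0.44, SE 0.169, adjusted p = 0.0266). The 2 calls are not firm. That of Frs2 was lost without KO replicate 2 or induced replicate 2 (adjusted p = 0.095 and 0.0596; range over alternatives 0.0135 to 0.095), and that of Frs3 without any of 4 libraries (KO replicates 2 and 3, induced replicates 2 and 3) and under DESeq2 (adjusted p = 0.055; range 0.00324 to 0.14).

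Of the 17 tested ERK feedback and ETV genes 7 were higher, 7 lower and 3 not past the threshold, with a median log2 fold change of 0.09. The called share was 82.4%, against 62.6% of all tested genes, which likewise divided almost equally between higher (31.0%) and lower (31.6%). Of the Sprouty genes, whose products block signalling downstream of the receptor, Spry4 rose most. It measured 40.7, 42.3 and 51.4 CPM in KO and 137.2, 144.6 and 148.2 CPM in induced libraries. The lowest induced library was well above the highest KO library, at a 3.20-fold difference (log2 fold change 1.68, SE 0.069, adjusted p = 4.22e-13). Spry1 averaged 14.9 against 18.2 CPM, a small rise (log2 fold change 0.29, SE 0.091, adjusted p = 0.00904) that was lost without KO replicate 1 or induced replicate 3 (adjusted p = 0.0784 and 0.0573; range 0.00438 to 0.0784).

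Spry2, the most abundant Sprouty transcript per length (65.0 and 59.95 RPKM), differed little. Its libraries measured 134.0, 133.8 and 137.3 CPM in KO and 119.6, 128.5 and 129.8 CPM in induced cells (log2 fold change -0.10, SE 0.047, adjusted p = 0.068). The groups did not overlap, and the call crossed the threshold under 3 alternatives, with adjusted p from 0.032 to 0.324 over all of them. Spry3 was too low to be tested, with 9, 5 and 12 reads in KO and 1, 1 and 0 in induced libraries. Pooled over each group, its KO-to-induced ratio was 12.9 (exact 95% counting interval 3.23 to 112). In the authors' deposited table its log2 fold change was -3.67 (adjusted p = 0.00947).

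The Spred genes, membrane-bound inhibitors of RAF activation related to the Sproutys, did not all move in the same direction. Spred1 rose from 128.4, 115.7 and 125.6 CPM to 185.1, 183.0 and 186.7 CPM (log2 fold change 0.58, SE 0.048, adjusted p = 5.1e-10). Spred3 fell 2.13-fold, from 65.8, 70.9 and 66.7 CPM to 33.7, 30.1 and 31.8 CPM (log2 fold change -1.09, SE 0.061, adjusted p = 7.04e-13). Spred2 averaged 109.7 against 100.2 CPM with overlapping groups, and its call (log2 fold change -0.13, SE 0.053, adjusted p = 0.0377) was lost without any of 4 libraries (KO replicates 1 and 3, induced replicates 2 and 3) and under DESeq2 (adjusted p = 0.0697; range 0.00915 to 0.198). Per length, Spred2 led in KO cells (23.9 against 18.2 RPKM for Spred1) and Spred1 in induced cells (27.1 against 21.6 RPKM for Spred2), with ranges that did not overlap.

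The 5 members that encode phosphatases removing the activating phosphates of ERK were all called, in different directions, where 62.6% of all tested genes were called. Dusp4, a nuclear phosphatase of MAP kinases, fell 2.27-fold, from 335.5, 335.9 and 414.6 CPM to 155.3, 146.4 and 176.5 CPM (log2 fold change -1.18, SE 0.101, adjusted p = 1.44e-05). Dusp6, the cytoplasmic ERK phosphatase that marks FGF signalling in many embryonic tissues, rose 1.51-fold, from 215.6, 188.4 and 220.6 CPM to 293.9, 316.0 and 332.6 CPM (log2 fold change 0.59, SE 0.058, adjusted p = 5.31e-08). Replicate 3 was the highest library of its group for both genes. Dusp4 therefore led per length in KO cells, at 132.7 against 66.8 RPKM for Dusp6, and Dusp6 in induced cells, at 99.6 against 57.8 RPKM for Dusp4, without overlap of their ranges.

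Dusp9, a cytoplasmic ERK phosphatase found in pluripotent cells, rose from 100.9, 108.7 and 109.1 CPM to 145.1, 141.6 and 144.6 CPM (log2 fold change 0.44, SE 0.047, adjusted p = 4.69e-08). Dusp7, its cytoplasmic relative, rose from a mean of 18.5 to 23.1 CPM (log2 fold change 0.32, SE 0.076, adjusted p = 0.000945). Dusp5, which acts on ERK in the nucleus as Dusp4 does, fell from 43.8 to 38.2 CPM (log2 fold change -0.19, SE 0.061, adjusted p = 0.00849). The call of Dusp5 was lost without induced replicate 2 (adjusted p = 0.0536; range 0.00622 to 0.0536).

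The ETV genes encode ETS transcription factors whose expression follows FGF signalling, and none of them was called higher. Etv4 fell 3.17-fold, from 84.2, 86.0 and 91.9 CPM to 27.4, 24.7 and 30.4 CPM (log2 fold change -1.66, SE 0.067, adjusted p = 2.45e-15). Etv5, the most abundant of them per length (94.3 ± 3.65 RPKM in KO and 60.4 ± 1.51 RPKM in induced cells; SD, n = 3), fell 1.54-fold, from 384.3, 369.1 and 402.1 CPM to 256.8, 241.0 and 251.2 CPM (log2 fold change -0.62, SE 0.046, adjusted p = 9.27e-11). In both cases all induced libraries lay below all KO libraries. Etv1 averaged 50.4 against 54.4 CPM, with overlapping groups (log2 fold change 0.11, SE 0.060, adjusted p = 0.119).

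Among the remaining ERK-induced genes, Phlda1, an early response gene with a pleckstrin-like domain, rose 2.74-fold, from 17.8, 16.6 and 20.8 CPM to 50.1, 52.5 and 49.0 CPM (log2 fold change 1.46, SE 0.076, adjusted p = 2.13e-13). Ier3, an immediate early gene linked to cell survival, fell 1.69-fold, from 405, 381 and 410 reads to 279, 212 and 206 reads (log2 fold change -0.76, SE 0.091, adjusted p = 2.33e-07). Neither pair of groups overlapped. Il17rd, also called Sef, a transmembrane inhibitor of FGF signalling, measured 268.3, 284.9 and 285.7 CPM in KO and 310.1, 305.5 and 280.1 CPM in induced libraries. Its groups overlapped through induced replicate 3 (log2 fold change 0.09, SE 0.048, adjusted p = 0.0902), and without that library it passed (adjusted p = 0.0141; range 0.0141 to 0.396).

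**Figure D4:**
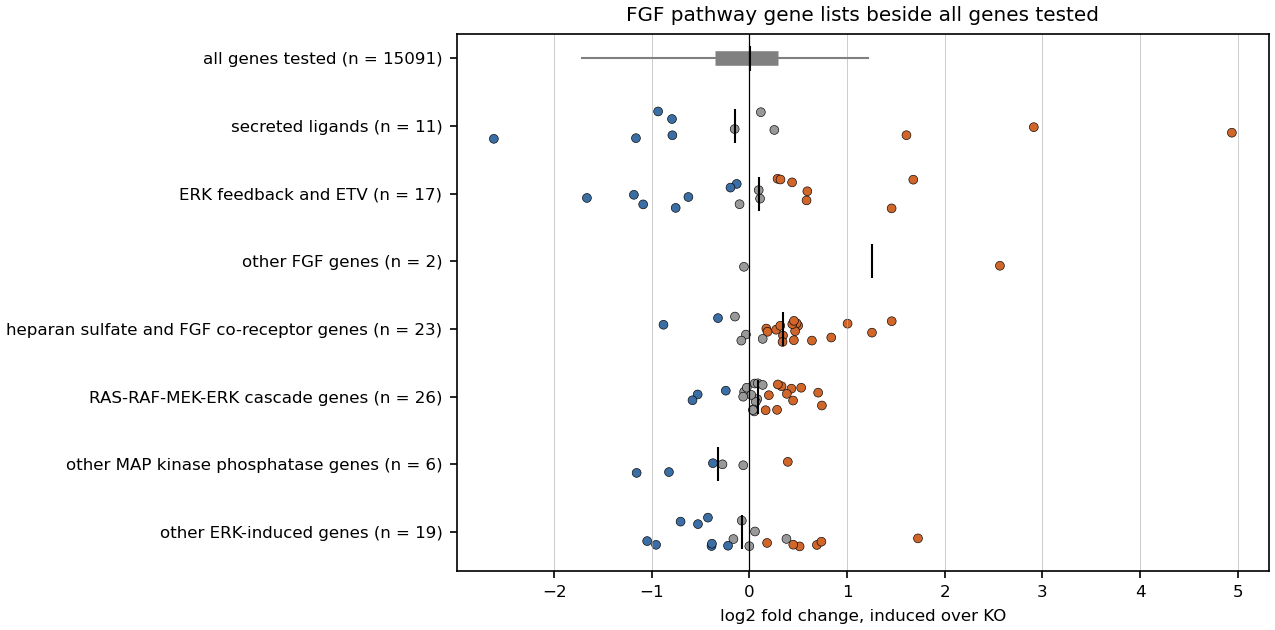
Log2 fold changes, induced over KO, of the tested secreted ligands, the ERK feedback and ETV genes and 5 further lists, with 1 point per gene (orange higher, blue lower, grey not past the threshold; vertical position within a list is random) and a tick at each median. The grey bar above shows all 15091 tested genes, with the middle 50% between -0.36 and 0.29 as the thick part and the 5th to 95th percentiles, -1.71 to 1.22, as the thin line.

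Genes that build and carry heparan sulfate, the co-receptor of secreted FGFs, together with FLRT and Klotho genes, were more often higher than lower. Of 26 listed, 23 were tested, and 17 rose and 2 fell, with a median log2 fold change of 0.34 (0.00 over all tested genes, of which 31.0% were called higher). Sdc1, a syndecan core protein, rose from 201.1 to 403.6 CPM (log2 fold change 1.00, SE 0.049), and Gpc4, a glypican core protein, from 41.7 to 99.5 CPM (log2 fold change 1.25, SE 0.071). Flrt3, which encodes a membrane partner of FGF receptors, rose from 7.26 to 20.0 CPM (log2 fold change 1.46, SE 0.117). Sulf1, an extracellular enzyme that removes sulfate from heparan sulfate, fell from 291.0 to 158.2 CPM (log2 fold change -0.88, SE 0.050). The adjusted p of these 4 genes was 5.5e-10 or less (edgeR). Sulf2, an enzyme of the same activity, rose from 246.2 to 340.4 CPM (log2 fold change 0.47, adjusted p = 1.08e-08) and was the higher of the pair per length in both groups (42.1 against 25.9 RPKM in KO, 57.6 against 13.9 RPKM in induced cells). Klb, the Klotho co-receptor that FGF15 and FGF21 use in metabolic tissues, and the related Klotho gene Kl were under 1 CPM in every library. Klb and Kl were chosen after their values were seen.

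Listed genes of the RAS-RAF-MEK-ERK cascade, from receptor adaptors to kinases downstream of ERK and with inhibitors of RAS among them, changed little in size. Of 27 listed genes 26 were tested; 11 rose, 3 fell and 12 did not pass, so 53.8% were called, against 62.6% of all tested genes. None was called at 2-fold or more, and the median log2 fold change was 0.08. The adaptor gene Gab1 rose from 32.2 to 53.9 CPM (log2 fold change 0.74, SE 0.061) and the RAF kinase gene Braf from 52.9 to 76.4 CPM (log2 fold change 0.53, SE 0.052). Rps6ka3 and Rps6ka2, which encode RSK kinases that ERK activates, fell (log2 fold changes -0.58, SE 0.056, and -0.53, SE 0.059), while the more abundant Rps6ka1 averaged 134.4 against 128.5 CPM and missed the threshold (log2 fold change -0.06, adjusted p = 0.277).

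Of 19 tested other ERK-induced genes 6 rose and 8 fell (median log2 fold change -0.08), which is 73.7% called against 62.6% of all tested genes. Egr2, an early growth response factor, rose from 2.74 to 9.14 CPM (log2 fold change 1.73, SE 0.181) and Plaur, the urokinase receptor gene, from 26.1 to 43.4 CPM (log2 fold change 0.74, SE 0.081), while Bhlhe40 (log2 fold change -1.05, SE 0.075) and the ETS factor gene Elk3 (log2 fold change -0.70, SE 0.065) fell. Of 6 other MAP kinase phosphatase genes 1 rose, Dusp16 (log2 fold change 0.39, SE 0.067), and 3 fell, Dusp14 (-1.16, SE 0.143), Dusp2 (-0.82, SE 0.107) and Dusp1 (-0.37, SE 0.071). Of 8 FGF genes outside the members only 2 were tested, and Fgf14, another intracellular FGF homologous factor, rose from 0.326 to 1.98 CPM (log2 fold change 2.56, SE 0.330, adjusted p = 6.42e-07).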

How the data were processed

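RNA-seq of 6 libraries was used. Per the labels' protocols, a strand-preserving mRNA kit was used on total RNA. The authors deposited a table of raw counts per library in the layout of STAR, and the submitters' processing notes name bcl2fastq, STAR, DESeq2 and mm10. The sources used here give neither tool versions nor the annotation. Of the stranded columns, the one counting the strand opposite to read 1 was taken, since it held 96.2% to 96.3% of stranded gene reads. Rows that name no gene took 15.1% to 17.6% of reads and were left out. Multimapped reads were not counted, per the file layout.

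Identifiers were named and given exon lengths from GENCODE M21 (55230 of 55471 matched). Counts were tested with edgeR 4.0.16 (R 4.3.3): filterByExpr, TMM scaling, robust quasi-likelihood fit with group as the only term, and Benjamini-Hochberg adjustment over 15091 genes. The standard error is the log2 fold change over the square root of F. The test was checked on simulated data. The members and lists were chosen with earlier results of these data known, so no list was tested as a set. Named by rule are all members, up to 4 called genes with the smallest p per further list, and Mixl1. Other genes named (chromosome 7 neighbours, single markers, Sulf2, Rps6ka1, Klb, Kl and Nudt6) were chosen after their values were seen.

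The authors also deposited a DESeq2 table with, per the file headers, a mean normalised count (signal), a log2 fold change and its standard error, a Wald score, raw and adjusted p-values, and a −log10 p. It was compared with the values computed here and used for Spry3.

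The alternatives were DESeq2 size factors, upper-quartile scaling, no or a stricter filter (1 CPM in 3 libraries), unstranded counts, a fit blocked on replicate number, each library left out in turn, DESeq2 1.42.0 and limma-voom 3.58.1 as tests, and, for levels, another gene length or scaling. The order of ligand and receptor levels by longest transcript was looked at after seeing the data. Counting intervals and limits cover counting error only, with 3 reads as the limit that 0 allows.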

Additional observations from a re-analysis of the deposited data

How the results depend on the processing

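Across 14 alternative settings, 524 of 545 values of single members kept their side of the threshold, and 31 of 39 members did so under every setting run. No member past the threshold changed direction, while Fgf9 (log2 fold change -0.49 to 0.04) and Fgfbp1 (-0.04 to 0.12), which passed under none, did. Calls were lost under at least 1 setting for 6 members (Fgf18, Frs2, Frs3, Spry1, Spred2 and Dusp5) and gained for 2 (Spry2 and Il17rd), with the values given beside each gene. No called member moved by more than 1.19-fold, the largest move being that of Fgf2 with unstranded counts. The number of members higher ranged from 13 to 14 and the number lower from 12 to 16 over all settings, against 14 and 15. With the replicate number as a term (replicate block), 14 members were higher and 16 lower, and 9647 genes in all were called against 9450. The labels do not say whether the numbers pair the libraries, and 3 libraries per group are too few to settle it. The correlation of deviations from the group means was 0.02, 0.13 and 0.11 for replicates 1, 2 and 3. Between libraries of different number it ran from -0.25 to 0.15, and KO replicate 1 correlated best with induced replicate 3. The summed ligand level was 33.7 RPKM lower in induced libraries, and between 24.6 and 43.3 RPKM lower with other lengths, counts or scaling. Genes near 1 CPM, such as Fgf9, Fgf2 and Fgf18, have standard errors of 0.230 to 0.335 (log2), against a median of 0.084 over all tested genes, so smaller differences in them were not detectable at this depth.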

Other observations

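The authors' deposited table, which rests on its own DESeq2 run, had the same sign as the values here for all 39 tested members and the same call for 35. The 4 others, Fgf2 (log2 fold change -0.55, adjusted p = 0.134 in the authors' deposited table), Fgf18 (-0.79, 0.0561), Frs3 (-0.47, 0.0902) and Spred2 (-0.12, 0.116), passed here and not there. The median difference in log2 fold change between the authors' deposited table and the values here was 0.006 and the largest 0.25, for Fgf2. Against the unstranded counts, the same differences were 0.001 and 0.018 (Fgf10). The mean count in the authors' deposited table lay within 2% of the size-factor-scaled unstranded mean for 40 of 40 members, and within 2% of the stranded mean for 31. The deposited table thus matches the unstranded column more closely than the one used here.

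Strand mattered for a few members. Exons of other genes on the opposite strand cover 33% of the exons of Phlda1, 25.7% of those of Fgf15 and 16.3% of those of Frs3, and the unstranded column held only 30.5%, 68.7% and 75.7% of the reads that the stranded column gave these genes. Spry1 and Dusp5, with 24.4% and 22.1% covered, kept 94.2% and 92.5%. Fgf2 carried nearly as many reads on the opposite strand (212 in all libraries) as on its own (232). The opposite-strand reads came to 2.12 ± 0.194 CPM in KO and 1.59 ± 0.159 CPM in induced libraries (SD, n = 3). Nudt6, the gene that overlaps Fgf2 in that orientation (a gene singled out once its value was known), did not pass the test (log2 fold change -0.14, SE 0.200, edgeR adjusted p = 0.576).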
